A study of Homo sapiens with 4 samples.

Results

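Mammary lineage transcription factors set and hold the identity of the breast's epithelial layers. TP63, SOX9, ELF3, ELF5, EHF, GATA3, KLF5, TFAP2A, TFAP2C and FOXA1 were chosen by name, and the 10 symbols each had 1 line among 18840 genes. Their RNA was measured in MCF10A, an immortalised, non-tumorigenic human mammary epithelial line, by poly(A) RNA sequencing. The cells stably carried 1 of 4 pBabe retroviral constructs: miR-105, MYC, GFP or the empty vector. All grew in 1 serum-containing DMEM/F12 medium supplemented with EGF, insulin, hydrocortisone and cholera toxin. There was 1 library per construct, and the labels give no number of clones or cultures. No difference below therefore has a replicate check, and each interval covers counting error alone.

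The mammary duct has an outer basal layer, which contracts and lies on the basement membrane, and an inner luminal layer, whose progenitors also give the milk-making alveolar cells. TP63 maintains basal cells. GATA3, FOXA1 and ELF5 act in luminal cells, GATA3 and ELF5 in mice also in alveolar development. ELF3 and EHF are epithelial ETS factors, SOX9 marks luminal progenitors and stem-like cells in mice, and KLF5, TFAP2A and TFAP2C act broadly in epithelial cells.

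The libraries held 6859698 reads for miR-105, 9795159 for MYC, 14025115 for GFP and 9138429 for vector. Levels are given as CPM, the reads of a gene relative to all reads of its library after TMM scaling, and 1 read was worth 0.157, 0.0948, 0.0722 and 0.108 CPM in the same order. MYC mRNA had 463 CPM in the miR-105 library, 232 in the MYC library, 198 in GFP and 207 in vector. The transcript named by the MYC label was thus highest in another library, and every direction below belongs to a library by its label. Epithelial markers were present in all 4 libraries: 8 of 8 measured keratin and adhesion genes had at least 1 CPM in each. Of these 8, 1 was at least 2-fold above and 3 at least 2-fold below both controls in miR-105, and 1 above and 4 below in MYC. Over all 12484 measured genes, 14.7% were above and 16.6% below in miR-105, and 9.03% above and 10.4% below in MYC. Markers of other cell types were lower in sum. Of 8 fibroblast markers, 3 or 4 reached 1 CPM in a library, with sums of 118 CPM in miR-105, 161 in MYC, 211 in GFP and 216 in vector, mostly from FAP and DCN. Of 9 immune markers, CSF1R, CD14 and CD68 reached 1 CPM, with sums of 43.0, 27.6, 99.3 and 95.8 CPM in that order, while PTPRC, the pan-leukocyte marker, had 0, 0, 1 and 0 reads. Of 5 endothelial markers, KDR and PECAM1 reached 1 CPM, with sums of 3.61 CPM in miR-105, 92.1 in MYC, 49.7 in GFP and 46.9 in vector. None of 5 erythroid markers did. Their part in the results was not tested. Whether fewer cells of a kind or less RNA per cell lies behind a lower level cannot be told apart in bulk RNA.

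A gene counted as measured if its 4 levels averaged 1 CPM or more, which 12484 genes and 9 of the 10 factors reached. ELF5 was the exception. Each of the 9 had at least 1 CPM in every library. A gene was called higher or lower if log2(CPM + 0.5) differed by at least 2-fold in the same direction from GFP and from vector. This scale understates the change of low genes.

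Seed matches to miR-105, the microRNA that names 1 construct, were found in SOX9 and ELF3, so the sequences are shown before the levels. The microRNA itself was not measured in these libraries. A microRNA pairs with messenger RNAs mainly through its seed, bases 2 to 8, which is in capitals in both mature strands of miR-105 (RefSeq, GRCh38.p14, chromosome X).
hsa-miR-105-5p: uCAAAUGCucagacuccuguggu
hsa-miR-105-3p: aCGGAUGUuugagcaugugcua
The match to the 5p seed, GCATTTG, was searched in the longest annotated 3' untranslated region of each gene. It stood once in SOX9 and once in ELF3, in capitals below, at base 792 of 2033 and at base 1265 of 1865.
SOX9 match: agtctagagaaGCATTTGgtaagctttat
ELF3 match: ggaaggagttgGCATTTGttgaaagtgta
Thus 2 of 10 factors held this match, against 16.9% of 12084 measured genes with an annotated region. The match to the 3p seed, ACATCCG, was in 0 of 10 factors and in 1.54% of the same genes. The pair with a 5p match lay on opposite sides of the controls in the library labelled miR-105, SOX9 higher and ELF3 lower. A match of letters is a description and not a site of action.

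**Figure D1:**
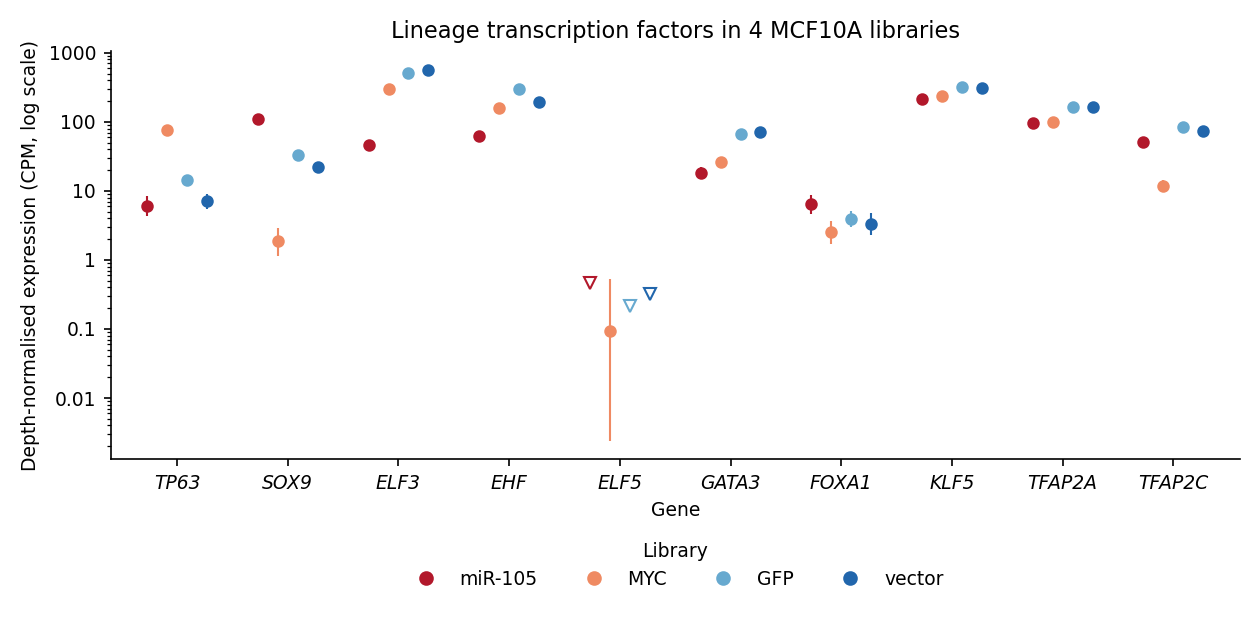
Depth-normalised expression (CPM, log axis) of the 10 lineage factors in the miR-105, MYC, GFP and vector libraries, 1 point per library, with exact Poisson 95% intervals that cover counting error only. Open triangles mark libraries with 0 reads, drawn at the level of 3 reads. SOX9 had 108 CPM in miR-105 and 1.90 in MYC, TP63 had 77.2 CPM in MYC and at most 14.4 elsewhere, and ELF3 had 46.3 CPM in miR-105 and at least 302 elsewhere.

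TP63, the p63 transcription factor (GRCh38 3:189631416-189897279, plus strand), had 6.12 CPM in miR-105, 77.2 in MYC, 14.4 in GFP and 7.14 in vector, from 39, 814, 199 and 66 reads. The library labelled MYC stood apart from the other 3. There TP63 was 5.37-fold (95% interval 4.59 to 6.30) above GFP and 10.8-fold (8.41 to 14.1) above vector. In miR-105 it was 2.35-fold (1.66 to 3.40) below GFP, while its ratio to vector was 0.857 (0.562 to 1.29), an interval that includes equality. GFP itself was 2.01-fold (1.52 to 2.70) above vector, so the controls differed for this gene by more than counting error. The table gives 1 value per gene, and the TA and deltaN forms of p63, which start at different promoters, cannot be told apart in it.

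SOX9, an SRY-box factor (GRCh38 17:72121020-72126420, plus strand), had 108 CPM in miR-105, 1.90 in MYC, 32.7 in GFP and 22.2 in vector, from 691, 20, 453 and 205 reads. It was high in miR-105 and low in MYC, with the controls between them. In miR-105 it was 3.31-fold (2.94 to 3.74) above GFP and 4.89-fold (4.18 to 5.74) above vector. In MYC it was 17.3-fold (11.0 to 28.5) below GFP and 11.7-fold (7.37 to 19.5) below vector. Between these libraries, miR-105 over MYC, the ratio was 57.2 (36.7 to 94.2), and 44 of 12484 genes had a larger log2 difference.

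ELF3, an epithelium-specific ETS factor (GRCh38 1:202007945-202017188, plus strand), had 46.3 CPM in miR-105, 302 in MYC, 510.1 in GFP and 561 in vector, from 295, 3188, 7062 and 5188 reads. The library labelled miR-105 was far below the other 3. There ELF3 was 11.0-fold (9.81 to 12.4) below GFP and 12.1-fold (10.8 to 13.7) below vector, and 166 genes, or 1.33% of 12484, had a lower mean log2 fold against the controls. In MYC it was 1.69-fold (1.62 to 1.76) and 1.86-fold (1.78 to 1.94) below the same controls, short of a call. Its exons share 664 bases with the antisense gene ELF3-AS1 and 449 bases with AL691482.3. No source used here gives the strand setting of the counting, so reads of ELF3-AS1 and of ELF3 cannot be told apart, and AL691482.3 lies on the same strand as ELF3.

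EHF, a related epithelial ETS factor (GRCh38 11:34621093-34661057, plus strand), had 62.6 CPM in miR-105, 161 in MYC, 301 in GFP and 192 in vector. It was lowest in miR-105, where it was 4.82-fold (4.35 to 5.35) below GFP and 3.07-fold (2.75 to 3.43) below vector. In MYC it was 1.87-fold (1.77 to 1.98) below GFP and 1.19-fold (1.12 to 1.28) below vector. The controls differed here too, GFP being 1.57-fold (1.48 to 1.66) above vector.

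ELF5, the ETS factor of alveolar progenitors (GRCh38 11:34478793-34513805, minus strand), is on the same chromosome as EHF. It had 0 reads in miR-105, 1 in MYC, 0 in GFP and 0 in vector. A count of 0 allows up to 3 reads, or 0.471 CPM in miR-105, 0.217 in GFP and 0.324 in vector, and the single read in MYC is 0.0948 CPM (0.0024 to 0.528). ELF5 RNA was thus not detectable in 3 libraries at this depth, while EHF had at least 399 reads in each.

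GATA3, a zinc-finger factor of luminal cells (GRCh38 10:8045378-8075203, plus strand), had 18.2 CPM in miR-105, 26.5 in MYC, 67.1 in GFP and 71.6 in vector, from 116, 279, 929 and 662 reads. Both other constructs lay below both controls, whose own ratio of 0.938 (0.848 to 1.04) includes equality. In miR-105 GATA3 was 3.69-fold (3.04 to 4.51) below GFP and 3.93-fold (3.22 to 4.83) below vector. In MYC it was 2.54-fold (2.22 to 2.91) and 2.71-fold (2.35 to 3.12) below the same controls. GATA3 was called lower in each comparison, and both use the same GFP and vector libraries.

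FOXA1, a forkhead pioneer factor of luminal cells (GRCh38 14:37589984-37596059, minus strand), was the lowest of the 9 measured factors in summed reads, with 41 reads in miR-105, 27 in MYC, 55 in GFP and 31 in vector. These are 6.43 CPM in miR-105 (4.61 to 8.72), 2.56 in MYC (1.69 to 3.72), 3.97 in GFP (2.99 to 5.17) and 3.35 in vector (2.28 to 4.76). In miR-105 its level was 1.62-fold (1.05 to 2.47) above GFP and 1.92-fold (1.17 to 3.16) above vector, short of a call. The ratios of MYC to GFP, 0.644 (0.391 to 1.04), and to vector, 0.764 (0.439 to 1.32), include equality.

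TFAP2C, the AP-2 gamma factor (GRCh38 20:56629302-56639283, plus strand), had 51.8 CPM in miR-105, 11.9 in MYC, 85.2 in GFP and 74.1 in vector, from 330, 126, 1180 and 685 reads. It was low in MYC, where it was 7.14-fold (5.93 to 8.64) below GFP and 6.20-fold (5.12 to 7.56) below vector. In miR-105 it was 1.65-fold (1.46 to 1.87) and 1.43-fold (1.25 to 1.64) below them. TFAP2A, its AP-2 alpha relative (GRCh38 6:10393186-10419659, minus strand), had 96.6 CPM in miR-105, 101 in MYC, 166 in GFP and 163 in vector. TFAP2A lay below both controls in both other libraries, by 1.72-fold and 1.69-fold in miR-105 and by 1.65-fold and 1.62-fold in MYC, with no call. Its ratio of miR-105 to MYC, 0.956 (0.864 to 1.06), includes equality. TFAP2A exons share 380 and 284 bases with the antisense genes TFAP2A-AS1 and TFAP2A-AS2, so its reads and theirs cannot be told apart without the strand setting.

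KLF5, a Krueppel-like factor of proliferating epithelium (GRCh38 13:73054976-73077542, plus strand), varied least from the controls. It had 213 CPM in miR-105, 235 in MYC, 319.9 in GFP and 306 in vector. In miR-105 its ratio was 0.667 (0.627 to 0.709) to GFP and 0.697 (0.653 to 0.744) to vector. In MYC the ratios were 0.734 (0.699 to 0.771) to GFP and 0.767 (0.726 to 0.810) to vector, so both libraries were below both controls with no call.

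**Figure D2:**
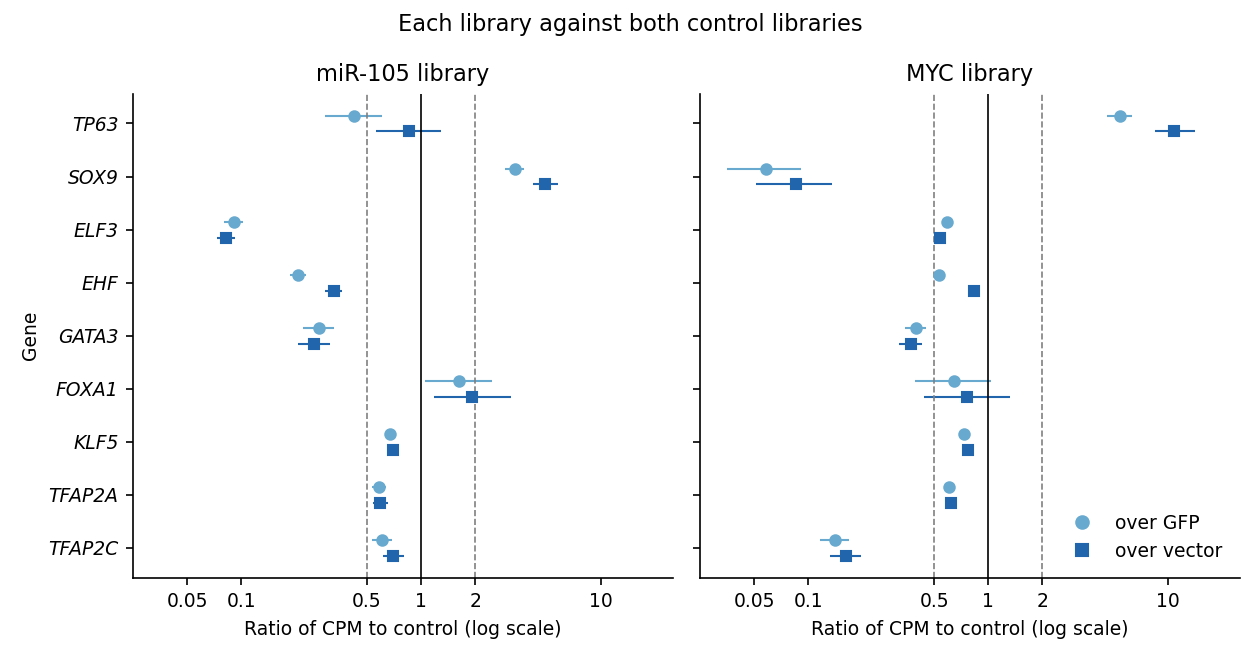
Ratio of CPM (log axis) in the miR-105 library (left) and the MYC library (right) to GFP (circles) and to vector (squares) for the 9 measured factors, with exact 95% intervals for counting error. Dashed lines mark 2-fold differences. ELF3, EHF and GATA3 lie left of the lower line and SOX9 right of the upper line for miR-105, and SOX9, TFAP2C and GATA3 lie left and TP63 right for MYC.

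In the library labelled miR-105, SOX9 was called higher and ELF3, EHF and GATA3 lower, and 5 factors were not called. Over all 12484 genes, 14.7% were called higher and 16.6% lower, 31.3% in all. The median log2 fold of the 9 factors was -0.69, against 0.0052 over all genes. Genes of mitosis moved with this library: 9 of 9 measured were called higher, and their summed level was 3857 CPM in miR-105, 148 in MYC, 68.3 in GFP and 86.6 in vector. In MYC 3 of these 9 were called higher and 0 lower, where 9.03% of all genes were higher and 10.4% lower. The part of the mitotic genes in the lineage factors' levels was not tested.

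In the library labelled MYC, TP63 was called higher and SOX9, TFAP2C and GATA3 lower, and 5 factors were not called. Over all genes 9.03% were called higher and 10.4% lower, 19.4% in all. The median log2 fold of the 9 factors was -0.70, against 0.036 over all genes.

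Between the control constructs none of the 9 factors was called, GFP against vector, where 3.06% of all genes were at least 2-fold higher in GFP and 1.03% lower, 4.09% in all. TP63 was nearest to a call, with a log2 difference of 0.96. The median over the 9 factors was 0.20, against 0.034 over all genes.

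Between miR-105 and MYC, 6 of the 9 factors were at least 2-fold apart, against 38.8% of all genes. SOX9, TFAP2C and FOXA1 were higher in miR-105, where 19.0% of all genes were higher, and TP63, ELF3 and EHF were lower, where 19.8% of all genes were lower. TP63 was 12.6-fold (9.15 to 17.9) lower, ELF3 6.53-fold (5.80 to 7.39) lower and EHF 2.57-fold (2.31 to 2.88) lower in miR-105 than in MYC. TFAP2C was 4.33-fold (3.52 to 5.36) higher. Beside each other, the miR-105 library was thus high in SOX9 and low in ELF3 and EHF, and the MYC library was high in TP63 and low in SOX9 and TFAP2C.

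Per kilobase of annotated exon, joined over the coding transcripts of a gene, levels can be roughly ordered between genes. Which transcripts were expressed is not known, so close ranks may depend on this length. In GFP, for example, ELF3 had 82.6 CPM per kilobase, near KLF5. KLF5 was first in miR-105 with 56.9 CPM per kilobase, in MYC with 62.6 and in GFP with 85.3, and ELF3 was first in vector with 90.9. ELF3 was next after KLF5 in MYC and GFP, but had rank 6 in miR-105. SOX9 had rank 2 in miR-105 with 27.5 CPM per kilobase and rank 9 of 10 in MYC with 0.482. TP63 had rank 5 in MYC with 11.8 CPM per kilobase and rank 8 or 9 elsewhere. The combined RNA of the 10 factors was 610 CPM in miR-105, 919 in MYC, 1501 in GFP and 1401 in vector. ELF3 gave 46.3, 302, 510.1 and 561 CPM of these sums in that order. The sums do not describe each factor, since SOX9 and FOXA1 were highest in miR-105.

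Ratios of reads within a library do not depend on the scaling between libraries. TP63 over ELF3 was 0.132 (0.0921 to 0.185) in miR-105, 0.255 (0.236 to 0.276) in MYC, 0.0282 (0.0244 to 0.0324) in GFP and 0.0127 (0.00982 to 0.0162) in vector. The ratio was thus above both controls in both other libraries, in miR-105 with few reads of ELF3 and in MYC with many of TP63. SOX9 over TP63 was 17.7 (12.8 to 25.1) in miR-105, 0.0246 (0.0149 to 0.0382) in MYC, 2.28 (1.92 to 2.70) in GFP and 3.11 (2.34 to 4.16) in vector. ELF3 over EHF was 0.739 (0.634 to 0.862), 1.88 (1.77 to 1.99), 1.69 (1.63 to 1.76) and 2.92 (2.77 to 3.08) in the same order, so EHF had more reads than ELF3 in miR-105 and in no other library. TFAP2A over TFAP2C was 1.87 (1.63 to 2.14) in miR-105, 8.46 (7.03 to 10.3) in MYC, 1.95 (1.82 to 2.10) in GFP and 2.20 (2.01 to 2.42) in vector. The intervals of the AP-2 pair overlapped in miR-105, GFP and vector, and in MYC the ratio was higher than in the other 3 libraries.

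**Figure D3:**
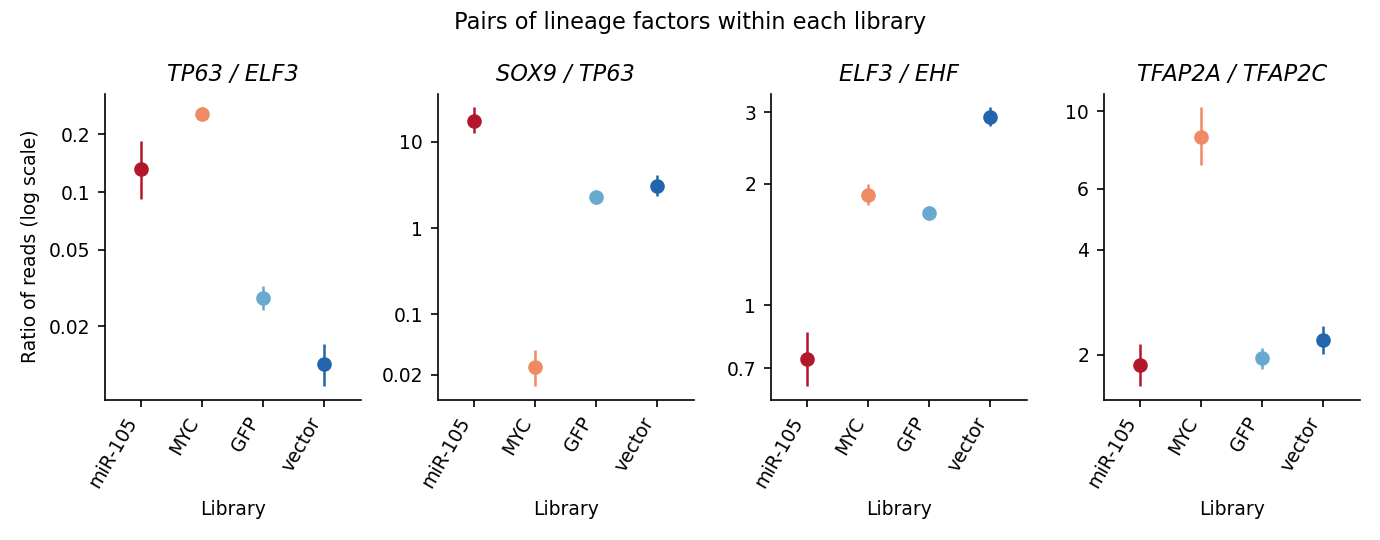
Ratio of reads (log axis) of 2 lineage factors within each library, for miR-105, MYC, GFP and vector, with exact 95% intervals for counting error. TP63/ELF3 was 0.132 and 0.255 in miR-105 and MYC, above 0.0282 in GFP and 0.0127 in vector, SOX9/TP63 was 17.7 in miR-105 and 0.0246 in MYC, and TFAP2A/TFAP2C was 8.46 in MYC and at most 2.20 elsewhere.

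The relatives of each factor in its family were described as background to the members' own values. TP73, a relative of TP63, had 0.314 CPM in miR-105, 26.6 in MYC, 0.578 in GFP and 0.973 in vector. It was called higher in the library labelled MYC, as TP63 was. SOX relatives had 3 of 7 measured genes called lower and 0 higher in miR-105, and 2 lower and 2 higher in MYC. Over all genes 16.6% were lower and 14.7% higher in miR-105, and 10.4% lower and 9.03% higher in MYC. SOX4, the SOX relative with the highest mean, had 63.0 CPM in miR-105, 41.4 in MYC, 248 in GFP and 142 in vector. In miR-105 SOX4 was thus below both controls while SOX9 was above them.

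ETS relatives had 3 of 17 measured genes called higher and 0 lower in miR-105, and 4 higher and 0 lower in MYC. ETV4, a factor induced by receptor signalling, had 30.7 CPM in miR-105, 0.948 in MYC, 2.82 in GFP and 1.62 in vector. ETS1 was 3.81-fold above GFP and 5.73-fold above vector in miR-105. In MYC, ETS2, which had the highest mean of the ETS relatives, was 2.77-fold above GFP and 3.03-fold above vector. No measured ETS relative was called lower in either comparison. The shares over all genes were 14.7% higher and 16.6% lower in miR-105, and 9.03% higher and 10.4% lower in MYC. KLF relatives had 2 of 11 lower in miR-105, KLF8 and KLF9, and 2 of 11 higher in MYC, KLF2 and KLF15. GATA2, which acts in blood progenitors, had 0.627 CPM in miR-105, 3.41 in MYC, 4.05 in GFP and 7.14 in vector, a call in miR-105 alone, and GATA6 had between 5.95 and 7.01 CPM in the 4 libraries. Of the AP-2 relatives TFAP2E alone was measured, at 0.627 to 1.37 CPM, and the 2 FOXA relatives were not measured, with 4 reads or fewer in sum in each library.

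The other regulators of epithelial identity were mostly on the lower side where they were called at 2-fold. Of 35 measured, 0 were higher and 10 lower in miR-105 (median log2 fold -0.48), against 14.7% and 16.6% of all genes. In MYC 3 were higher and 10 lower (median 0.051), against 9.03% and 10.4% of all genes. At a 1.5-fold threshold 3 were higher and 13 lower in miR-105, and 8 were higher and 12 lower in MYC. At this threshold 2997 of all 12484 genes were higher and 3088 lower in miR-105, and 2071 higher and 2146 lower in MYC. ID2, an inhibitor of basic helix-loop-helix factors, had 4.86 CPM in miR-105, 1.14 in MYC, 38.8 in GFP and 45.9 in vector. GRHL1, a grainyhead factor of epithelial junctions, had 5.80, 2.28, 42.9 and 23.6 CPM in that order. Both were thus low in both other libraries. GRHL2, a grainyhead factor that maintains epithelial junction genes, had 645 reads in miR-105, 0 in MYC, 2152 in GFP and 1047 in vector. Against the level of 3 reads in the MYC library, it was at least 547-fold lower there than in GFP and at least 398-fold lower than in vector. BCL11A, a zinc-finger factor of luminal progenitors in mice, had 0.471 CPM in miR-105, 24.6 in MYC, 4.41 in GFP and 6.05 in vector.

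Of 20 measured luminal lineage genes, 1 was called higher, 8 lower and 11 neither in miR-105 (median log2 fold -0.76), where 16.6% of all genes were lower. In MYC 0 were higher, 13 lower and 7 neither (median -1.80), where 10.4% of all genes were lower. CD24, a surface glycoprotein gene used to sort luminal cells, had 950.1 CPM in miR-105, 60.7 in MYC, 3652 in GFP and 3086 in vector. MUC1, an apical mucin gene, had 257, 742, 1643 and 1785 CPM in that order. CLDN4, a tight-junction gene, had 168 CPM in miR-105, 2.75 in MYC, 299 in GFP and 276 in vector. These 3 genes were therefore below both controls in both libraries, CLDN4 by less than 2-fold in miR-105. AREG, an EGFR ligand gene, was the 1 luminal gene called higher in miR-105. It had 585 CPM in miR-105, 76.7 in MYC, 23.8 in GFP and 39.7 in vector. At 1.5-fold, 4 of the 20 luminal genes were higher and 10 lower in miR-105, and 3 higher and 13 lower in MYC. Over all 12484 genes, 2997 were higher and 3088 lower in miR-105 at 1.5-fold, and 2071 higher and 2146 lower in MYC.

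Basal lineage genes had calls in both directions, more of them lower. Of 23 measured, 3 were higher and 8 lower in miR-105 (median log2 fold -0.02), against 14.7% and 16.6% of all genes. In MYC 1 was higher and 8 lower (median -0.86), against 9.03% and 10.4% of all genes. KRT5, a basal keratin, had 4654 CPM in miR-105, 4138 in MYC, 1614 in GFP and 1757 in vector, and was called higher in both. KRT17, another basal keratin, had 766 CPM in miR-105, 1777 in MYC, 5131 in GFP and 6927 in vector, and was called lower in both. TAGLN, a contractile gene, had 23.1 CPM in miR-105, 6.35 in MYC, 159 in GFP and 102 in vector. KRT5 and KRT17 thus moved in opposite directions, and the contractile genes TAGLN and ACTA2 were lower in both libraries. KRT14, a further basal keratin, was called lower in miR-105 (mean log2 fold -1.84). In that library MME was called lower (-3.73) and ITGA6 higher (2.78). MYLK, the gene of a contractile kinase, had 16.2 CPM in miR-105, 3.41 in MYC, 18.7 in GFP and 14.4 in vector, so it was called lower in MYC and not in miR-105.

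Of 15 measured genes known as direct targets of p63, 3 were called higher and 5 lower in miR-105 (median log2 fold -0.11). Over all genes 14.7% were higher and 16.6% lower there. In MYC 5 of the 15 targets were higher and 1 lower (median 0.58), against 9.03% of all genes higher and 10.4% lower. This balance in MYC was 6 higher and 4 lower at a 1.5-fold threshold, and 6 higher and 3 lower against vector alone. Over all 12484 genes, 2071 were higher and 2146 lower at 1.5-fold, and 1624 higher and 1573 lower against vector alone. FAT2, a protocadherin gene, had 1.10 CPM in miR-105, 196 in MYC, 1.08 in GFP and 0.432 in vector. FGFR3, a growth factor receptor gene, had 2 reads in miR-105, 2019 in MYC, 0 in GFP and 2 in vector. Both had high levels in the MYC library and almost none elsewhere. IGFBP3, the 1 target called lower in MYC, had 72.3 CPM in miR-105, 1.71 in MYC, 104 in GFP and 58.7 in vector. Of 6 measured alveolar and milk genes, LTF, the lactoferrin gene, was called higher in MYC with 597 reads, against 0 in GFP and 0 in vector, and CEL was called lower in miR-105.

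**Figure D4:**
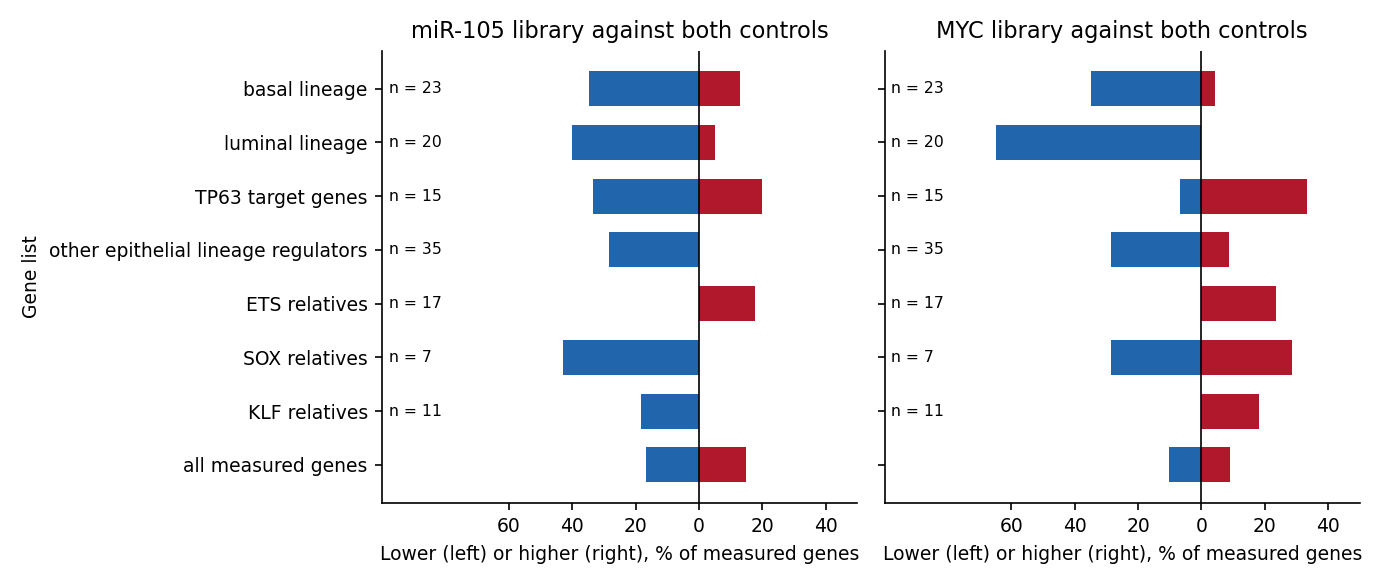
Share of the measured genes of each list that were at least 2-fold lower (left of 0) or higher (right of 0) than both controls, in the miR-105 library and in the MYC library, with the share over all measured genes in the bottom row. Luminal genes had 8 of 20 lower in miR-105 and 13 of 20 lower in MYC, and p63 target genes had 5 of 15 higher in MYC.

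The 250 bases before each annotated start (RefSeq, GRCh38.p14) were searched for motifs on both strands, for 8 of the 10 factors with 16 start sites. The TATA box letters TATAAA stood in 4 of the 16 windows, in ELF3, GATA3, KLF5 and TFAP2A, against 6.23% of 14118 windows of measured genes. The 4 genes were below both controls in both other libraries, but so were EHF, whose windows held no match, and TFAP2C, which was not searched, 6 of the 9 measured factors in all. The sites of ELF3, TFAP2A and KLF5 are shown with the match in capitals, 5' to 3' on the gene's strand, and the GATA3 match was on the opposite strand.
ELF3, GRCh38.p14 chr1:202010541-202010570, plus strand: caggggacacacTATAAAgccctgagctca
TFAP2A, GRCh38.p14 chr6:10419672-10419701, minus strand: gattgccgcggcTATAAAtccatcacttcc
KLF5, GRCh38.p14 chr13:73054770-73054799, plus strand: acacacttcatcTATAAAtcaacatctaaa
The ELF3 match began 34 bases before the start, that of TFAP2A 30 bases and that of KLF5 194 bases. The E-box bound by MYC, CACGTG, was in 1 window, in GATA3, against 8.16% of all windows, and the ETS motif CCGGAAG was in 1, in GATA3, against 13.6%. The AP-2 motif GCCNNNGGC was in 3 windows of GATA3, against 26.3% of all windows, and the GATA motif AGATAA in 1 window of EHF, against 5.26%. The forkhead motif TGTTTAC was in 2 windows, in EHF and ELF5, against 2.32%, and the GC box GGGCGG in 6, in FOXA1, GATA3 and KLF5, against 62.3%. These matches say nothing of binding in these cells.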

How the data were processed

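Poly(A) RNA was sequenced from 4 MCF10A libraries, 1 each for miR-105, MYC, GFP and vector. Per the submitters' processing notes, TopHat2, edgeR and build hg19 were used; no source used here gives the read counter, annotation or strand setting. The deposited values are a depth-adjusted signal with the form of edgeR pseudo-counts. The design provided for values of this form in the count tests alone, and its ratio intervals assumed counts. Inverting the adjustment (common dispersion 0.05528, vector and GFP as 1 group) gave whole reads for 100% of 18859 values in each library at a relative tolerance of 1e-05; the step was tested on simulated data. Of the lines, 19 exact repeats were dropped. Reads were scaled with TMM (edgeR 4.0.16). Ratio intervals are exact conditional binomial (Clopper-Pearson) 95% intervals, level intervals exact Poisson 95% intervals, and the limit for a count of 0 is 3 reads. They cover counting error only, since reads carried no molecular identifiers. No test was used, since each construct has 1 library. As alternatives, edgeR's quasi-likelihood test and DESeq2 1.42.0 took vector and GFP as replicates, which may understate the spread between cultures. Both were checked on simulated reads. Other alternatives were scaling, the filter, the pseudocount, the fold threshold and leaving out either control. Gene models came from GENCODE release 29 (GRCh38), which is not the authors' build and served for names, lengths and sequences only. The lineage factors and the 18 other lists were chosen with earlier results of these data known. Named genes were all 10 factors, and from each list up to 4 called genes with the largest mean log2 fold, up to 2 with the smallest and, in families, the relative with the highest mean. PTPRC was named after its values were seen. Some genes that this rule names are not reported here. KRT8, PGR, LPO, FGFR2, KLF6, KLF7 and AURKB were not analysed here.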

Additional observations from a re-analysis of the deposited data

How the results depend on the processing

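The same 4 factors were called in miR-105 (SOX9, ELF3, EHF, GATA3) and the same 4 in MYC (TP63, SOX9, TFAP2C, GATA3) with DESeq2 size factors, library totals alone, the values as deposited, no filter, a mean of at least 5 CPM, and pseudocounts of 0.1 and 2 CPM. Both count tests at an adjusted p under 0.05 called them too; edgeR called 4878 of 12484 genes in miR-105 and 2788 in MYC, DESeq2 3348 and 1748. Without vector, TP63 was also called lower in miR-105, which made 5 factors, against 4 without GFP. At 1.5-fold, 6 of 9 factors were called in miR-105, where FOXA1 (higher) and TFAP2A (lower) were added. In MYC 6 of 9 were called at 1.5-fold, where ELF3 and TFAP2A were added, both lower. At 3-fold GATA3 was lost in MYC. Between GFP and vector, where 0 factors were called, a pseudocount of 0.1 CPM called 1 (TP63) and a 1.5-fold threshold 2 (EHF and TP63). Over all genes the GFP and vector libraries differed in 510 genes, in 801 without a filter, in 278 with a pseudocount of 2 CPM, in 2490 at 1.5-fold and in 81 at 3-fold. At 1.5-fold and 3-fold the calls were 6085 and 2099 in miR-105 (3904 at 2-fold), 4217 and 1282 in MYC (2426), and 7441 and 2691 between miR-105 and MYC (4849), as the thresholds themselves determine. Library totals alone moved the median of all genes in MYC to 0.14 from 0.036 (log2), and between miR-105 and MYC to -0.15 from 0.051; Between miR-105 and MYC, FOXA1 lost its call with library totals alone, with a pseudocount of 2 CPM and at 3-fold, where EHF lost it too; FOXA1 was left out by the 5 CPM filter. No factor that was called changed sign. Between GFP and vector, KLF5 kept its sign in 7 of 9 alternatives (lowest log2 value -0.0052) and TFAP2A in 6 of 9 (lowest -0.041). No paired analysis was possible because each construct has 1 library. Depth limits FOXA1, ELF5, SOX9 in MYC, and TP63 in miR-105 (39 reads) and vector (66 reads), which rest on few reads.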
